A study of Rattus norvegicus with 6 samples.

Results

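Along 512 kb of chromosome 2, a run of 11 neighbouring gene loci was studied in rat RNA-seq libraries labelled as controls or as knockdown of SLC2A10. The members were all loci whose transcript start and transcript end events lay between 248178389 and 248690580 on chromosome 2 in the coordinates of the deposited tables. No source used here names the genome build of these coordinates. There were 11 such loci among 13685 loci in all. The window was chosen by their measured levels, because neighbouring loci in it were low in the knockdown libraries, so the difference from control is a description here, for which no p is given. The run has the working name of a guanylate-binding protein run. Ensembl gene IDs were given for 8 members and none for 3. The reference table held no Ensembl IDs, so 0 of the 8 IDs matched a symbol, and the name could not be checked locus by locus. In RefSeq's rat assembly GRCr8, chromosome 2 holds Gbp5, Gbp7, Gbp4, Gbp2, Gbp1 and Gbp3 followed by the pseudogenes Gbp1-ps1 and Gbp6-ps2, and then Kyat3, Gtf2b and Pkn2, with a few unnamed genes between them. Which of these corresponds to which locus was not settled here.

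The study compared controls with knockdown of SLC2A10, the gene of the glucose transporter GLUT10. There were 2 control libraries and 2 libraries for each of the interference sequences numbered 2 and 3 in the sample titles. The paper describes primary vascular smooth muscle cells (VSMCs) grown from the aorta of male Sprague-Dawley rats and infected in culture with virus carrying control or SLC2A10 short hairpin RNA, and all 6 libraries carry the labels aorta and strain SD. The sample labels instead name siRNA in the titles, genotypes of wild type for the controls and SLC2A10-/- for both sequences, and frozen aorta as the source of RNA, while the series text names mice. It is thus not settled if the RNA came from cultured cells or from tissue. No age, culture date or time after infection is in the labels, and nothing says that replicates came from separate cultures, so every p-value reflects the variation among the 6 libraries alone, and that variation may be technical. In bulk RNA, fewer cells of a type and less RNA per cell cannot be told apart. SLC2A10, smooth muscle markers, markers of other cell types and the lists of interferon pathway genes could not be looked up, because none of the 12224 IDs matched a symbol, so the directions rest on the sample labels.

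Guanylate-binding proteins are large GTPases that cells make in quantity after interferon, above all interferon gamma, and that attack intracellular bacteria, parasites and viruses. In the classical pathway, interferon receptors activate Janus kinases and STAT proteins, STAT complexes and interferon regulatory factors bind response elements near the starts of target genes, and the GTPases then assemble on the membranes of pathogens or their vacuoles. Rodent and human Gbp genes lie in clusters of similar copies that arose by duplication. Reads from similar copies can be divided differently between loci, and no source used here says how shared reads were divided.

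RefSeq holds 6 promoters for 5 of the Gbp symbols on rat chromosome 2, each 250 bases before to 50 bases after a gene's start. They are shown because the run carries the family's name, and they are not tied to single loci. The promoters were searched on both strands for GAAANNGAA, the core of the interferon-stimulated response element, which reads TTCNNTTTC on the other strand, and for TTCNNNGAA, the letters of a gamma-activated site, which read the same on both strands. The first motif was in 6 of 6 promoters, against 9.71% of 33469 rat promoters of this length. These 6 are not independent cases, since Gbp1 has more than 1 of them and the genes are similar copies. Gbp3 has none here. The second was in 1 of 6, the promoter of Gbp7, against 8.87% of all. Below are the promoters with a match to the first motif beginning at most 55 bases before the start. Capitals mark both motifs, and all 4 sequences are on the plus strand of GRCr8, at chr2:233910749-233911048 for Gbp5, chr2:233948639-233948938 for Gbp7, chr2:233978236-233978535 for Gbp4 and chr2:234005477-234005776 for Gbp2. The build of the run's coordinates is not named, so these positions were not set against its loci.
Gbp5: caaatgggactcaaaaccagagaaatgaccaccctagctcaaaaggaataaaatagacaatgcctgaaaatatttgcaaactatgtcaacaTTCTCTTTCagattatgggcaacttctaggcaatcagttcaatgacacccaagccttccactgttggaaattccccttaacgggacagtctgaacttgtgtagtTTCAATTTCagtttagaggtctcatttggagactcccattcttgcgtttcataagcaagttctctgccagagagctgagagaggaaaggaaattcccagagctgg
Gbp7: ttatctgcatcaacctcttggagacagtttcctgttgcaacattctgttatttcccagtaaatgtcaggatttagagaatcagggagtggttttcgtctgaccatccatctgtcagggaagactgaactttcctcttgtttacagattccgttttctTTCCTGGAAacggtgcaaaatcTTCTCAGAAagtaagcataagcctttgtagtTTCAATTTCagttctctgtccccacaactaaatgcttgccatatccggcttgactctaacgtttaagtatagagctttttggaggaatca
Gbp4: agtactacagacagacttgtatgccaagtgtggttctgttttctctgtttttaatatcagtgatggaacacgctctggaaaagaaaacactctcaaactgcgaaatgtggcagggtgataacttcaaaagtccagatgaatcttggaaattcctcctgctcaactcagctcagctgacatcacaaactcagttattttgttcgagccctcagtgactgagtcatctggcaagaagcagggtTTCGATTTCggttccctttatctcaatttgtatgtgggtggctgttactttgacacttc
Gbp2: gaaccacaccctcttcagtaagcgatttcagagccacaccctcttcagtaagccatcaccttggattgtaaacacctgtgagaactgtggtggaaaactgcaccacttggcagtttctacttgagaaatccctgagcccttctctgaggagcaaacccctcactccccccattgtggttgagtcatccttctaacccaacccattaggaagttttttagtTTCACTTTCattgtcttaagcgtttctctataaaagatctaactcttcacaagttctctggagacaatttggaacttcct

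Gbp5 had matches to the first motif starting 159 and 55 bases before the gene's start, Gbp7 had 1 starting 40 bases before it, Gbp4 had 1 starting 9 bases before it and Gbp2 had 1 starting 30 bases before it. In Gbp7, the second motif began 93 and 71 bases before the start. The promoters of Gbp1, not shown, held 1 and 3 matches to the first motif, and 2 of those 3 overlapped. A match is only a description of the letters in this window.

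A level here is the larger of the summed start and the summed end events of a locus, in FPKM (fragment numbers divided by transcript length and by library size), and a locus with no listed event was set to 0. The libraries listed 11564 to 11856 loci, with the fewest in replicate 2 of sequence 3, and their median level over tested loci lay between 7.83 and 8.14 FPKM. No 2 libraries were identical, and the depth behind the FPKM values is unknown. The whole run summed to 601 and 541 FPKM in the controls, to 8.69 and 10.2 with sequence 2 and to 16.5 and 14.2 with sequence 3. The mean sum was 571 ± 42.3 FPKM in controls, 9.44 ± 1.07 FPKM for sequence 2 and 15.4 ± 1.58 FPKM for sequence 3 (each SD, n = 2). The knockdown groups thus had 1.65% and 2.69% of the control sum. In the controls 10 and 9 of the 11 members were listed, and 4 or 5 in the knockdown libraries.

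**Figure D1:**
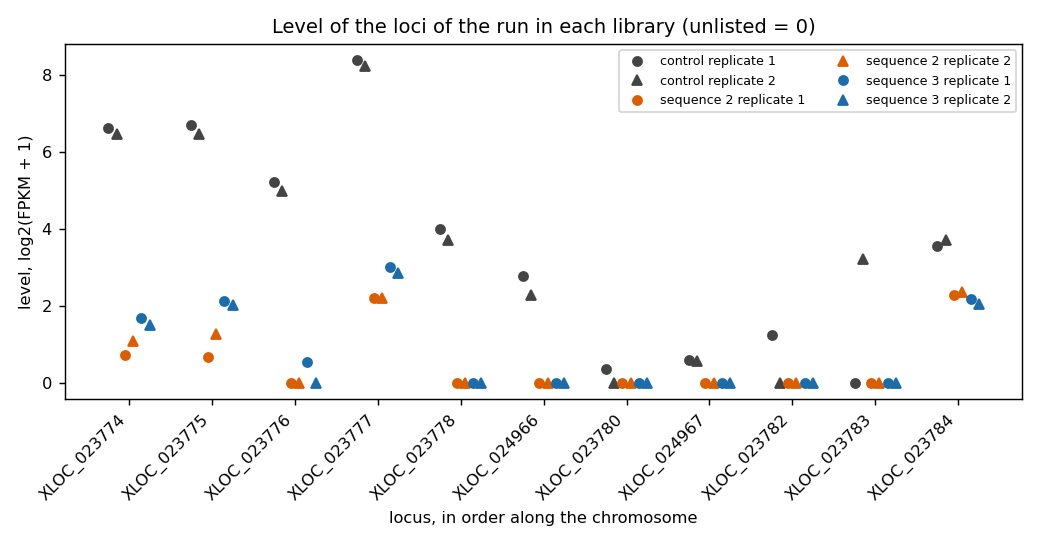
Level of each of the 11 loci, as log2(FPKM + 1), in each of the 6 libraries, with loci in order along the chromosome, colours for the groups and symbols for the replicates. In the 4 loci listed in all 6 libraries both control points lie above all 4 knockdown points, and 6 loci have points above 0 in control libraries only. The window was chosen by this difference, and the share of all loci with these patterns is not given, so nothing is read from these counts.

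The 4 loci at the start of the run lie within about 98.3 kb, by their starts, on the plus strand and were the highest in the controls. XLOC_023777 (ENSRNOG00000031743, 248276709 to 248293784) was the highest of the run. Its level was 332 and 299.9 FPKM in the controls, 3.62 and 3.596 with sequence 2 and 6.99 and 6.21 with sequence 3. Both controls were far above the 4 knockdown libraries, with the lower control 42.9 times the highest of them. In the controls it ranked 139 and 168 from the top among the loci listed in the library, and in the knockdown libraries between 5777 and 7638. Its mean was 316 ± 22.4 FPKM in controls, 3.61 ± 0.0159 FPKM for sequence 2 and 6.60 ± 0.554 FPKM for sequence 3 (each SD, n = 2). This locus alone made up 55.1% and 55.4% of the run's sum in the controls, and 35.2% to 43.6% of what was left in the knockdown libraries.

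XLOC_023774 (ENSRNOG00000032240, 248178389 to 248197160) opens the run. Its level was 97.4 and 87.1 FPKM in the controls, 0.656 and 1.12 with sequence 2 and 2.22 and 1.80 with sequence 3. The lower control was 39.3 times the highest knockdown library. XLOC_023775 (ENSRNOG00000029191, 248215237 to 248241259) stood at 103 and 86.7 FPKM in the controls, 0.593 and 1.396 with sequence 2 and 3.33 and 3.07 with sequence 3. The control levels of XLOC_023774 lay between those of XLOC_023775, so the order of these 2 loci does not hold up against the replicate spread, with means of 94.6 ± 11.2 and 92.2 ± 7.30 FPKM (SD, n = 2).

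XLOC_023776 (ENSRNOG00000028768, 248249468 to 248263168) stood at 36.2 and 30.8 FPKM in the controls. Both libraries of sequence 2 and replicate 2 of sequence 3 did not list it. In replicate 1 of sequence 3 a single end event of 0.44 FPKM was listed with no start event. Among the 4 loci, it was the lowest in the controls and the only one missing from any library.

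Farther along, 2 loci were present in both controls and listed in no knockdown library, although they passed the filter for testing. XLOC_023778 (ENSRNOG00000023943, plus strand, 248398917 to 248423359) stood at 14.8 and 12.1 FPKM. XLOC_024966 (ENSRNOG00000036885, minus strand) stood at 5.88 and 3.89 FPKM. No fold is given for them, since the knockdown libraries list them at 0. Of all 10648 tested loci, 41 were listed in both controls and in no knockdown library, which is 0.385%.

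Small loci follow, from XLOC_023780 to XLOC_023783, and none reached 1 FPKM in 2 libraries. XLOC_023780 (ENSRNOG00000059088) was listed in control replicate 1 only, at 0.291 FPKM. XLOC_024967 on the minus strand was listed in both controls, at 0.495 and 0.487 FPKM. XLOC_023782 was listed only in control replicate 1, at 1.37 FPKM, and XLOC_023783 only in control replicate 2, at 8.32 FPKM. The last 3 carry no Ensembl ID. Each of XLOC_023782 and XLOC_023783 was thus listed in one control and not in the other, and neither in a knockdown library.

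XLOC_023784 (ENSRNOG00000043426, 248644427 to 248690580) closes the run and had a different size of change. No symbol was matched to this locus, so it is not settled if it belongs to the family that names the run. Its level was 10.7 and 12.04 FPKM in the controls, 3.82 and 4.09 with sequence 2 and 3.50 and 3.16 with sequence 3. The lower control was 2.61 times the highest knockdown library. The mean over the knockdown libraries was 32.1% of the control mean, whereas it was 0.328% to 2.22% for the 4 loci that open the run. Its share of the run's sum was 1.77% and 2.22% in the controls and 21.3% to 44.0% in the knockdown libraries. With sequence 2 it was the largest member in both libraries, at 44.0% and 40.1% of the sum beside 41.7% and 35.2% for XLOC_023777. This order holds by starts only, since its end had 1.93 and 1.66 FPKM there, against 3.62 and 3.596 FPKM for the end of XLOC_023777.

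On the log2(FPKM + 1) scale, which understates the change of low loci, the change from control to the mean of both sequences was -5.74 (standard error 0.103) for XLOC_023777, -5.29 (0.152) for XLOC_023774, -5.06 (0.192) for XLOC_023775 and -4.97 (0.198) for XLOC_023776. It was -3.85 (0.169) for XLOC_023778, -2.54 (0.218) for XLOC_024966 and -1.41 (0.121) for XLOC_023784. The values for loci at 0 depend on the added 1 FPKM and are no measure of how far they fell. The median over the 7 members was -4.97, beside 0.0819 over all 10648 tested loci. Limma's calls for these members carry no information, because the same difference chose the window, and XLOC_023776, XLOC_023778 and XLOC_024966 passed the filter of 1 FPKM in 2 libraries only through the controls. For completeness, 7 of 7 tested members were among the loci called lower (adjusted p under 0.05), which were 2.86% of all tested loci for both sequences together, 2.45% for sequence 2 and 2.38% for sequence 3, in comparisons that share the control libraries.

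**Figure D2:**
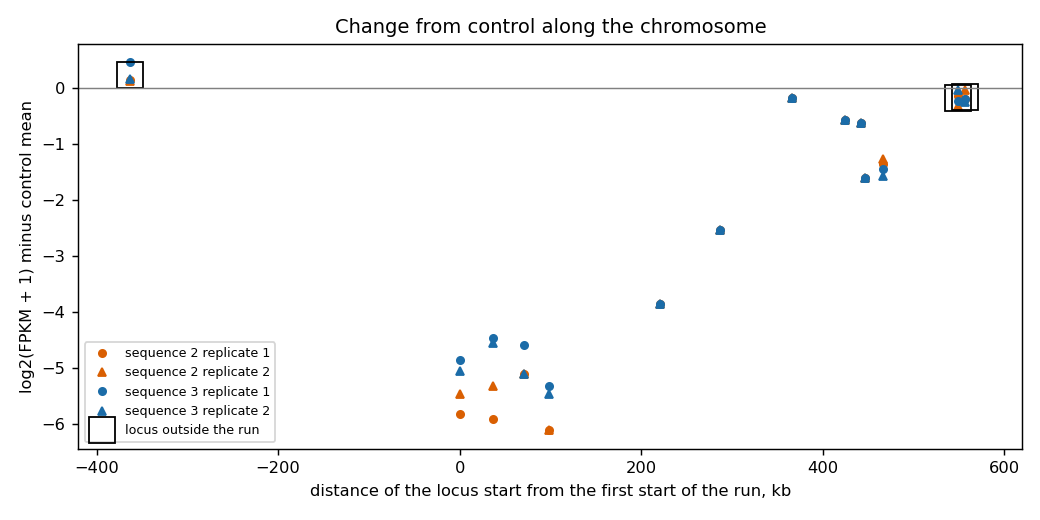
Change in log2(FPKM + 1) from the mean of the 2 controls in each of the 4 knockdown libraries (points), against the distance of the locus start from the first start of the run in kb, with open squares on 3 loci outside the window. The 4 loci within 98.3 kb lie lowest, XLOC_023780 at 365.7 kb lies at -0.184 among the nearest outside loci on the right, and the 4 members beyond it lie between about -0.58 and -1.61.

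Just inside the window's ends lie XLOC_023774 and XLOC_023784, described above. Just outside, XLOC_024962 (ENSRNOG00000016419) ends 185 kb before the window and stood at 52.1 and 35.6 FPKM in controls, 47.6 and 46.7 with sequence 2 and 59.2 and 48.3 with sequence 3. On the other side, XLOC_023785 (ENSRNOG00000011135) begins 36.8 kb after the window and stood at 26.8 and 28.3 FPKM in controls, while the knockdown libraries lay between 21.9 and 26.9. XLOC_024969 (ENSRNOG00000011317) begins 45.1 kb after it and stood at 11.7 and 11.05 FPKM in controls, while the knockdown libraries lay between 9.37 and 10.99. Of the next loci outward, XLOC_024961 (ENSRNOG00000016289) stood at 3.40 and 3.02 FPKM in controls and between 1.11 and 1.76 with either sequence, while XLOC_023772 (ENSRNOG00000029071) and XLOC_024971 (ENSRNOG00000009205) had 102% and 94.7% of their control mean in the knockdown libraries. The values at the edges are a description, because the window was drawn where the low loci end.

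The difference between sequence 3 and sequence 2 is taken between knockdown libraries and did not choose the run, although the controls enter the filter and the estimate of the spread. It could be tested in the 4 members listed in all knockdown libraries, and 0 of the 4 were called by limma (adjusted p under 0.05), beside 0.0939% of all loci. At an unadjusted p under 0.05 there were 3 of 4, which is 3 of the 7 members in the fit, beside 5.45% of all loci. These shares are over all 10648 tested loci, also those at 0 in the knockdown libraries. No other tool was run. XLOC_023777 was 1.83 times as high with sequence 3 as with sequence 2, a log2 difference of 0.72 (standard error 0.119, adjusted p = 0.279 from limma, and 0.220 to 0.872 over the alternatives). XLOC_023775 differed by 1.10 (standard error 0.222, adjusted p = 0.463 from limma) and XLOC_023774 by 0.68 (standard error 0.175, adjusted p = 0.732 from limma). In each of these 3 loci both libraries of sequence 3 were above both of sequence 2, as they were in 26.4% of all tested loci.

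The locus at the other end went the opposite way in value. XLOC_023784 was 0.843 times as high with sequence 3 as with sequence 2, with both libraries of sequence 3 below both of sequence 2 and a log2 difference of -0.194 (standard error 0.140, adjusted p = 0.734 from limma). This order of the libraries was seen in 11.6% of all tested loci. A p that misses the threshold does not show that the sequences acted alike. XLOC_023778 and XLOC_024966 were at 0 in all 4 knockdown libraries and XLOC_023776 in 3 of them, so these loci could not be compared.

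With the filter, the spread and the adjustment taken from the 4 knockdown libraries alone, a choice made after seeing the data, 10316 loci were tested, the same 4 members among them. Again 0 of the 4 were called by limma, beside 0.0679% of these loci, and 3 had an unadjusted p under 0.05, beside 4.77%. The adjusted p from limma was 0.694 for XLOC_023777 and 0.782 for each of the other 3. The median log2 difference was 0.70 over the 4 members and 0.0671 over these loci, and with a knockdown library left out it was 0.61 to 0.79 over the members.

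**Figure D3:**
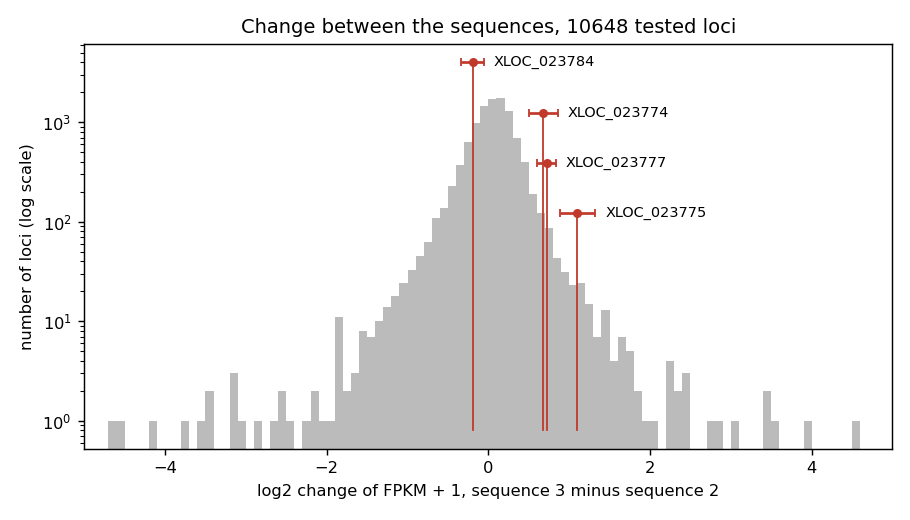
Number of loci, on a log scale, by log2 change of FPKM + 1 from sequence 2 to sequence 3 over 10648 tested loci (grey bars), with the 4 members listed in all knockdown libraries as red points with standard errors at arbitrary heights. XLOC_023775 at 1.10, XLOC_023777 at 0.72 and XLOC_023774 at 0.68 lie in the right flank of the bars, and XLOC_023784 lies left of 0.

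The members carried 34 different events, of which 12 were starts, 12 were ends and 10 were splicing events in 3 loci. Start and end sums were equal within 0.1% in 16 of the 34 cases in which a member had both in a library, which is 47.1%, beside 75.4% of 59788 such cases over all loci. XLOC_023774 and XLOC_023777 had 1 start and 1 end of equal FPKM in all 6 libraries. XLOC_023775 did not. Its start had 43.4 and 32.1 FPKM in the controls, and its end had 103 and 86.7 FPKM. The start was thus 42.3% and 37.0% of the end in the controls, 118% and 71.4% with sequence 2 and 18.7% and 28.4% with sequence 3. The knockdown libraries lay on both sides of the controls, and knockdown against control did not pass an exact two-sided permutation test (p = 0.8, where 2 against 4 libraries cannot go below 0.133). The difference between the sequences in this locus rested on the end. By starts only it was -0.0331 on the log2 scale, and by ends only 1.144 (adjusted p = 0.975 and 0.571 from limma).

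XLOC_024966 had its listed start at 248465320 to 248465386 and its listed end at 248473289 to 248473744. On the minus strand a transcript begins at the higher position, so this start lies beyond this end and the 2 belong to different transcripts. The start had 5.88 and 3.89 FPKM and the end 4.88 and 2.80 FPKM in the controls, and the level counts only the larger. Both events were listed in no knockdown library. The transcripts of this end also carried a retained intron at 248477732 to 248478457, in 87.6% and 70.9% of their FPKM, and an exon that was skipped in 29.1% of it in control replicate 2, with no skipped form listed in control replicate 1. XLOC_023776 had 2 alternative ends of an exon that starts at 248254889, and the longer one held 11.4% and 7.14% of their FPKM in the controls.

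XLOC_023784 was the only member whose splicing could be compared between groups. An exon at 248649440 to 248649539 was skipped in 23.7% and 20.0% of the FPKM of all its forms in the controls. It was skipped in 33.9% and 9.01% with sequence 2 and in 49.8% and 33.4% with sequence 3. The knockdown libraries fell on both sides of the controls, at 31.5% ± 16.8 (SD, n = 4) against 21.9% ± 2.60 (SD, n = 2). The difference of 9.64 percentage points was smaller than the spread between the knockdown libraries and did not pass an exact two-sided permutation test (p = 0.667, smallest possible p = 0.133). A form of the exon ending at 248649543 was listed in control replicate 2, replicate 2 of sequence 2 and replicate 1 of sequence 3, at 1.96, 1.05 and 0.878 FPKM. The start of this locus had 211% and 199.5% of the FPKM of its end in the controls and 131% to 293% in the knockdown libraries, which also did not pass the exact permutation test (p = 0.933). Of these 3 shares tested, the smallest p adjusted after Benjamini and Hochberg was 0.933.

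**Figure D4:**
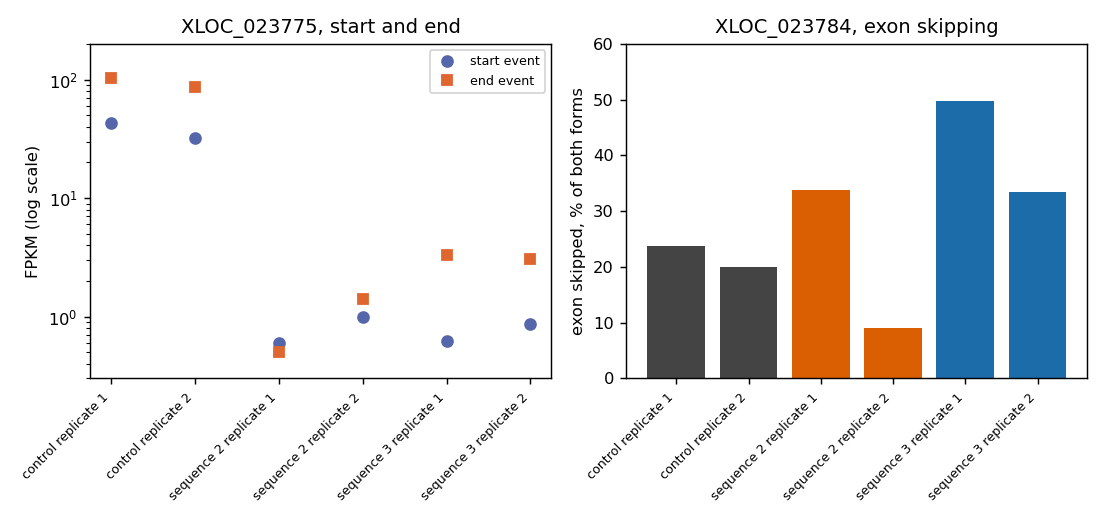
Left, FPKM of the start event (circles) and end event (squares) of XLOC_023775 in each library on a log scale, with the start below the end in all libraries but replicate 1 of sequence 2. Right, share of the FPKM of XLOC_023784 in which the exon was skipped, 1 bar per library, lowest at 9.01% and highest at 49.8%, both in knockdown libraries.

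The profile of the run over the 6 libraries was taken as the mean log2(FPKM + 1) of the 7 tested members, centred on its own mean. Of the members, XLOC_023778 was nearest to it, with a root mean square difference of 0.209, and XLOC_023784 farthest, at 1.302. Outside the run, the most alike loci were XLOC_040022 (ENSRNOG00000031081, chromosome 7, 2691369 to 2707150), with a difference of 0.0724, and XLOC_007471 (ENSRNOG00000031138, chromosome 10, 34213936 to 34221928), with 0.106. XLOC_040022 stood at 147 and 139 FPKM in the controls, 6.33 and 6.96 with sequence 2 and 9.58 and 9.095 with sequence 3. XLOC_007471 stood at 71.8 and 64.5 FPKM in the controls, 1.88 and 2.16 with sequence 2 and 3.95 and 3.19 with sequence 3. The likeness rests on 6 libraries, mostly on the gap between control and knockdown, and says nothing of shared function.

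**Figure D5:**
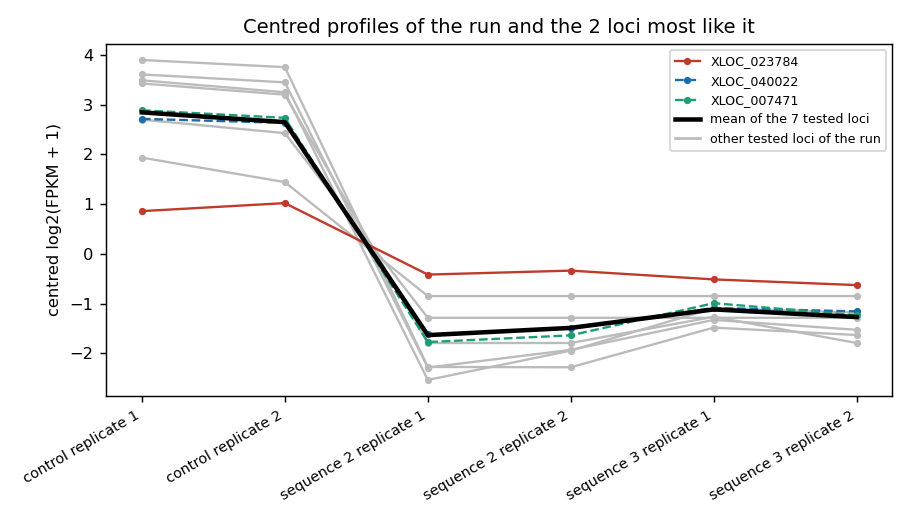
Centred log2(FPKM + 1) in the 6 libraries for the 7 tested members (grey, XLOC_023784 in red), their mean (black) and the 2 most alike loci elsewhere in the genome (dashed). The dashed lines run along the black mean, while XLOC_023784 has the smallest step between controls and knockdown libraries.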

How the data were processed

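RNA-seq of 6 libraries was used, 2 controls and 2 for each of 2 interference sequences, grouped by sample titles. For every library the authors deposited 1 table, in which starts, ends and splicing events of assembled loci each have an FPKM value. Among other tools, the submitters' processing notes list HISAT2 2.0.1 and StringTie 1.0.4 without saying what each did. No source used here names the genome build or annotation. Since the files hold no counts, the depth is unknown and counting intervals cannot be given. Unlisted events were set to 0, although a failed estimate could also leave an event out.

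The planned design expected gene values, but the files list events. Repeated event IDs were dropped and the level of a locus was the larger of its summed starts and summed ends. In R 4.3.3, limma 3.58.1 was fitted to log2(FPKM + 1) across all loci with at least 1 FPKM in at least 2 libraries, with 1 mean per group, the mean-variance trend and Benjamini-Hochberg adjustment. The script was tested on simulated data. Shares were compared with exact permutation tests in SciPy 1.17.1, and promoters were taken from RefSeq GRCr8. The window, the members, the motifs and the lists were chosen with earlier results of these data known. All members were named, with the nearest 3 loci on each side and the 2 loci most alike in profile, fewer than with symbols. The planned lists of interferon genes and cell type markers were not analysed here, since no ID matched a symbol. Alternatives were pseudocounts, filters, scalings, the choice of events, the variance model, thresholds, left-out libraries and a replicate block.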

Additional observations from a re-analysis of the deposited data

Results flagged for a closer look

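In XLOC_023776, 1 of the 4 knockdown libraries stood apart. The gap from replicate 1 of sequence 3, at 0.44 FPKM, to the nearest of the others, divided by the range of the 4, was 1, above Dixon's 95% critical value for 4 samples. The other 3 libraries did not list the locus, and the value came from a single end event. The ratio is fixed at 1 by these ties at 0, so the usual error rate of Dixon's test does not apply to it. The cause was not tested.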

How the results depend on the processing

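Every tested member was lower in the knockdown libraries than in the controls under each alternative that kept it, which the choice of the run makes likely from the start. Leaving out 1 library at a time, 4 to 7 members were called lower by limma for both sequences together, beside 119 loci of 10481 without control replicate 2 to 349 of 10520 without replicate 1 of sequence 3 over all loci. For sequence 2 there were 3 to 7, beside 0.925% to 2.58%, and for sequence 3 also 3 to 7, beside 0.945% to 3.02%. Without either control library, 4 members were tested, because XLOC_023776, XLOC_023778 and XLOC_024966 no longer passed the filter, and the lone library left in a group was assumed to vary like the other groups. For both sequences together 4 were then called, for sequence 2 there were 3, and for sequence 3 there were 4 without control replicate 1 and 3 without control replicate 2. Over loci listed in all 6 libraries, chosen after seeing the data, 4 were tested and called in each of these comparisons (beside 2.32%, 1.91% and 1.88%). Since this contrast chose the run, nothing is read from these counts. Between the sequences 0 members were called under any alternative that kept all libraries, beside 0.0939% of all loci in the main fit. With a library left out, the log2 difference was 0.645 to 0.794 for XLOC_023777 and 0.809 to 1.40 for XLOC_023775. It was 0.502 to 0.859 for XLOC_023774 and -0.251 to -0.137 for XLOC_023784. The deviations of samples with the same replicate number correlated at -0.0613 between control and sequence 2 and at 0.178 between control and sequence 3. Between sequence 2 and sequence 3 the correlation was -0.0817. With 2 libraries per group these values cannot show if the numbers pair the samples, and pairing was not tested. With the replicate block 7, 7, 7 and 0 members were called for both sequences, sequence 2, sequence 3 and sequence 3 against sequence 2, beside 2.44%, 2.13%, 1.97% and 0.047% of all loci.

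The median log2 change of the 7 tested members, -4.97, was -5.36 with a pseudocount of 0.5 and -5.99 with 0.1. It was -2.54 with no filter, which adds the 4 low members, and -4.44 with starts only. With a knockdown library left out it was -5.08 to -4.84 over the same 7 members. Without control replicate 1 or control replicate 2 it was -5.08 and -5.28, but over only the 4 members still tested. The summed level was 541 to 601 FPKM in controls, 8.69 to 10.2 with sequence 2 and 14.2 to 16.5 with sequence 3 with a library left out. Starts only gave 514 in controls and 12.7 with sequence 3, and ends only gave 7.24 with sequence 2. By starts, XLOC_023775 counts with 43.4 and 32.1 FPKM in the controls in place of 103 and 86.7. With sequence 3 it counts with 0.623 and 0.873 in place of 3.33 and 3.07. By ends, XLOC_023784 counts with 1.93 and 1.66 FPKM with sequence 2 in place of 3.82 and 4.09. Why starts and ends differ in these loci was not tested. What the depth limits cannot be given.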
